A study of Mus musculus with 5 samples.

Results

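The mitochondrial ribosomal protein genes are nuclear genes named for protein subunits of the ribosome inside mitochondria. They were taken as all genes whose symbol is Mrpl or Mrps followed by a number and at most 1 letter, which gave 76 of the 18384 genes in the count files, 47 Mrpl and 29 Mrps. The rule used names only and no measured value, but the family was chosen with earlier results of these data known. Mrp63, the older symbol of a large subunit protein, and subunit proteins with other names such as Dap3 and Ptcd3 fall outside this rule. All 76 passed the filter on low counts in each comparison.

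As background, mitochondria translate the few messenger RNAs of their own genome on a dedicated ribosome, and the products are subunits of the respiratory chain and of ATP synthase. The ribosomal RNAs come from the mitochondrial genome, while each ribosomal protein is made in the cytosol and imported. Mrpl genes are named for proteins of the large subunit, which forms the peptide bond, and Mrps genes for proteins of the small subunit, which reads the messenger RNA. Some proteins have a bacterial counterpart and others are found in mitochondria alone. Names do not always tell the place, because the product of Mrps18a lies in the large subunit.

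The cells came from organoids of MMTV-PyMT mouse mammary tumors, in which a mammary promoter drives the polyoma middle T oncogene, with strain and age not given in the sources used here. All organoids were grown in BME, a basement membrane extract, then re-embedded in BME (labelled as no invasion) or in fibrillar Collagen I (labelled as invasion) for 5 days, and live cells were sorted singly into 384-well plates for SORT-seq. Plates of 3 replicates in BME and of replicates 1 and 3 in Collagen I make up the data. Nothing in the sources used here says that plates of 1 matrix came from separate cultures, so p-values measure the spread between plates, which may be technical.

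The filter on wells left 944 BME wells and 556 Collagen I wells. The plates of the matrices stood apart in depth, with a median of 21739 to 25603 counts per kept well in BME and of 2749 to 5106 in Collagen I. The names of the deposited tables place the 3 BME plates on the same flow cell and the Collagen I plates on separate ones, so matrix and sequencing run cannot be told apart. Columns are named by well position, the same 384 in every plate, and carry no cell barcode to compare. Wells were called basal at 5 or more counts of Krt5, Krt14 and Krt17 per 10000 counts, non-basal under 2, cycling at 20 or more counts of 40 mitotic genes per 10000 and non-cycling under 10. In Collagen I the median basal well held only 8 and 5 keratin counts. Luminal markers summed to 41.1 and 51.3 per 10000 in basal wells there against 10.8 to 10.9 in BME. In non-basal wells they also summed to more, 58.7 and 65.0 per 10000 in Collagen I against 30.3 to 34.1 in BME. The luminal markers did not move together. In basal wells of Collagen I Krt8, Krt18, Csn3, Spp1 and Mgp were higher than in BME, and Cd14 was lower. Fibroblast markers summed to 1.09 and 3.91 per 10000 counts in the Collagen I plates and to 0.294 to 0.362 in BME, while immune and endothelial markers stayed under 0.1 in every plate. The part of these depths and markers in the results below was not tested.

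The 76 genes were expressed within a narrow range. SORT-seq counts 1 tag per molecule at the 3′ end, so levels of different genes can be compared without a correction for length. Mean levels over the 5 plates, all wells summed, ran from 17.1 counts per 1000000 counts (CPM) for Mrpl24 to 162 for Mrps21, with a median of 51.8, and the Mrpl genes held 65.7% of the summed counts. Mrps21, a small subunit protein with a bacterial counterpart, was measured at 170, 158 and 166 CPM in BME, against 149 and 168 in Collagen I. Mrpl51, a large subunit protein, had 162, 165 and 174 CPM in BME and 122 and 100 in Collagen I. The plates of the matrices overlapped for Mrps21 and did not for Mrpl51, and Mrpl51 was lower in Collagen I (log2 fold change -0.57, SE 0.14, adjusted p = 0.00816). Mrpl17 came next at 139, 163 and 150 CPM in BME and 123 and 134 in Collagen I. Mrpl12, whose product forms the flexible stalk of the large subunit, came next and ranged most among these genes, at 142, 204 and 198 CPM in BME and 76.9 and 74.0 in Collagen I (log2 fold change -1.26, SE 0.18, adjusted p = 0.000192). Mrpl14 followed with 92.5, 125 and 122 CPM in BME and 130 and 149 in Collagen I and missed the threshold (log2 fold change 0.30, SE 0.16, adjusted p = 0.182). Mrps21 lay above Mrpl14 in 5 of 5 plates, while neighbours among these genes overlapped in their values over plates. Across the 76 genes the CPM values of any pair of plates correlated with r from 0.774 to 0.983, a description over genes that share libraries.

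The genes were spread over 17 chromosomes in the GENCODE vM21 annotation of GRCm38, with 10 on chromosome 11, and all 76 lay on the chromosome named in the count files. The median gene spanned 7900 bases, against 22775 for the 15791 coding genes of the files that have a position. The start of another coding gene lay on the other strand within 1000 bases of the start of 32 members (42.1%), against 13.1% of those coding genes. For example, Mrpl46 (chr7:78775236-78783531) and Mrps11 (chr7:78783119-78792989), a large and a small subunit gene, overlap at their starts on opposite strands. In all, 26 members overlap another coding gene, and reads there could be assigned to either.

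Promoter windows of 300 bases, 250 before to 50 after the start, were found for 67 of the 76 genes in the RefSeq table of GRCm38.p6. The letters CCGGAAG, the core of ETS factor motifs, occurred on either strand in 23 of 67 windows (34.3%), against 14.0% of 13291 windows of genes in the files. AAGATGGCG, a YY1 motif, was in 8 (11.9% against 2.44%), and the consensus motif of NRF1 in 3 (4.48% against 1.64%). GGGCGG of SP1 was in 49.3% against 54.6%, CACGTG in 7.46% against 9.08%, and TATAAA in 5.97% against 9.90%. CCGGAAG and AAGATGGCG can share the letters AAG, and a match is a description and not a bound site. To show how such a promoter reads, the 100 bases before the RefSeq start are given for 4 genes that hold CCGGAAG there and overlap no annotated exon, with CCGGAAG or its reverse complement in capitals. Mrpl34 is among the genes that differed most between basal and non-basal wells, Mrps22 is the gene whose matrix effect differed between them, Mrpl43 holds the letters 2 times, and Mrpl52 holds them on the other strand.
Mrpl34, chr8:71464826-71464925, plus strand: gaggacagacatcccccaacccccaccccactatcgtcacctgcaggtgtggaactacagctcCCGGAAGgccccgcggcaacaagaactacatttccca
Mrps22, chr9:98601680-98601779, minus strand: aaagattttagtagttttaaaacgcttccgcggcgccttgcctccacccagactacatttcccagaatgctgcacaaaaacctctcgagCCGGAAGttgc
Mrpl43, chr19:45006443-45006542, minus strand: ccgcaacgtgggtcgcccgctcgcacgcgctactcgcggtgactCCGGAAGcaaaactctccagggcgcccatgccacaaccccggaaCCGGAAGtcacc
Mrpl52, chr14:54426809-54426908, plus strand: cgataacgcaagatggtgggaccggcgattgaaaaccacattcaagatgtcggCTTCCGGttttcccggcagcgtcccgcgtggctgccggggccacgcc

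The first comparison set Collagen I against BME, the matrix labelled with invasion against the one labelled without. Summed over the 76 genes and all wells, the level was 45.5, 54.0 and 53.1 counts per 10000 in BME, plate by plate, and 36.7 and 36.2 in Collagen I. Both Collagen I plates lay below each BME plate, with means of 50.9 ± 4.65 (SD, n = 3) and 36.5 ± 0.398 (SD, n = 2), or 28.4% lower (exact permutation test, two-sided, p = 0.1, which is the smallest value that 3 plates against 2 allow). In basal wells the means were 46.2 ± 3.69 and 33.1 ± 2.56 (exact p = 0.1), and in non-basal wells 53.7 ± 5.55 and 37.9 ± 0.499 (exact p = 0.1), again without overlap. In cycling wells they were 55.6 ± 5.57 and 46.8 ± 0.634, and in non-cycling wells 42.9 ± 4.90 and 32.2 ± 0.800, without overlap but with exact p = 0.2 in each. The Mrpl genes summed to 31.6% less in Collagen I over all wells and the Mrps genes to 21.9% less.

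**Figure D1:**
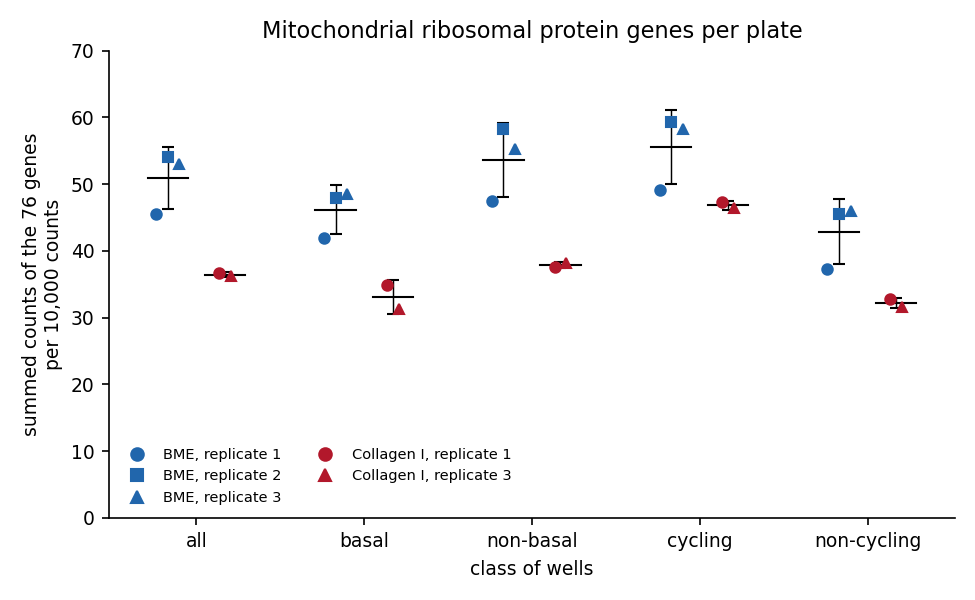
Summed counts of the 76 genes per 10000 counts (vertical axis, from 0) in 5 classes of wells, with 1 point per plate (BME blue, Collagen I red, symbols for replicates) and bars for the mean ± SD over plates. The Collagen I plates lie below all BME plates in each class, and cycling wells lie above non-cycling wells in both matrices.

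Depth moved with this difference. In wells of 2000 to 5000 counts the plates gave 38.4, 31.6 and 44.0 per 10000 in BME and 33.1 and 33.2 in Collagen I, with overlap (exact p = 0.4). In wells of 5000 to 10000 counts they gave 35.1, 42.8 and 43.5 in BME and 35.7 and 40.4 in Collagen I, also with overlap (exact p = 0.6). Above 10000 counts the levels were 45.9, 54.7 and 53.3 in BME and 43.4 and 42.8 in Collagen I, without overlap (exact p = 0.2). In each BME plate the wells of the lower ranges thus held a smaller share of these transcripts than the deeper wells. The log2 ratio of Collagen I to BME was -0.20, -0.09 and -0.25 in these ranges, against -0.48 over all wells. Above 10000 counts the wells still differed in depth, with medians of 27041 to 35534 counts in BME and of 12176 and 12031 in Collagen I. The values rest on 14 to 24 BME wells per plate below 10000 counts and on 22 and 10 Collagen I wells above. These depth ranges were added after the data were seen.

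**Figure D2:**
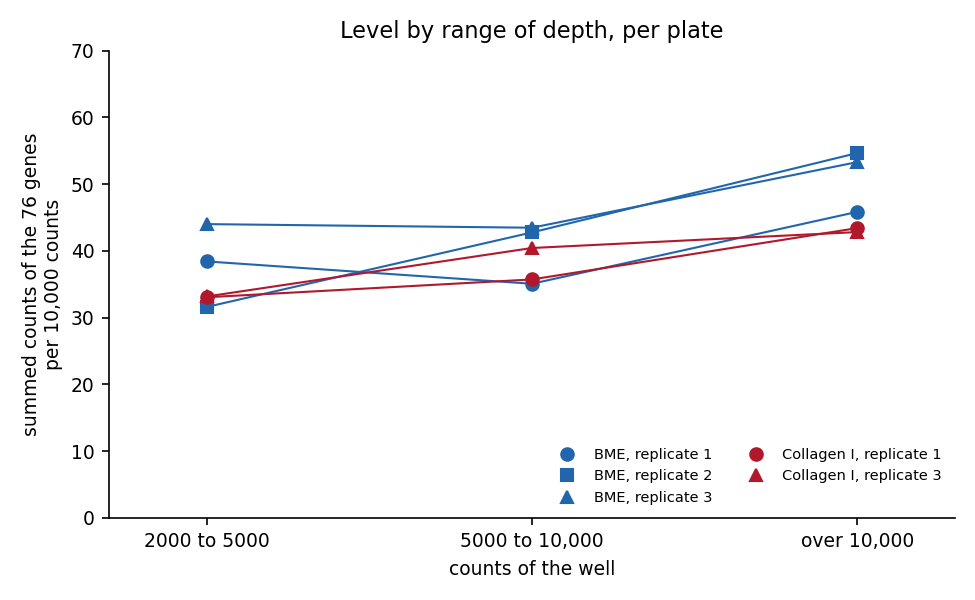
Summed counts of the 76 genes per 10000 counts (vertical axis, from 0) in wells of 3 ranges of depth (horizontal axis, counts per well), 1 line per plate with BME in blue and Collagen I in red. The plates of the matrices overlap in both lower ranges and are apart above 10000 counts.

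When every well was thinned to 2000 counts, the median well held 8, 10 and 10 counts of the 76 genes in BME and 7 and 7 in Collagen I. The mean was 8.67, 10.3 and 10.2 counts in BME and 7.15 and 6.97 in Collagen I, so the order of the plates was as in the sums. Thinning left out 33, 63 and 48 BME wells and 33 and 104 Collagen I wells that were shallower. In Collagen I replicate 1, 1 of 218 thinned wells held no count of any member, and the other plates had none.

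By gene, 39 of 76 members were lower in Collagen I over all wells and 1 was higher (edgeR quasi-likelihood test, adjusted p under 0.05), where 16.3% of all 11839 genes tested were lower and 15.5% higher. The median log2 fold change was -0.53 over the members and -0.03 over all genes. Lower calls comprised 27 of 47 Mrpl genes and 12 of 29 Mrps genes. In basal wells 13 were lower and none higher (8.31% and 10.8% of all genes, median -0.52). In DESeq2 basal wells had 7 lower calls (4.91% of all genes). In non-basal wells 31 were lower and 1 higher (13.9% and 14.1%, median -0.55). In cycling wells 6 were lower and none higher (3.41% and 4.82%, median -0.38). Without overlap between the plates, 49 members were below BME over all wells (31.9% of all genes) and 5 above (28.2%). In basal wells these numbers were 41 below (29.7%) and 1 above (23.5%), in non-basal wells 47 (31.8%) and 4 (26.6%), and in cycling wells 24 (23.7%) and 9 (24.1%). The number of lower calls moved with single plates. Over all wells it was 25 without BME replicate 3 (12.3% of all genes) and 15 and 17 without Collagen I replicates 1 and 3 (6.91% and 7.38%). Without the same plates it was 8, 7 and 4 in basal wells (5.92%, 3.69% and 2.36%), and without either Collagen I plate 12 and 16 in non-basal wells (5.17% and 6.71%). In cycling wells it was 12, 3 and 1 without BME replicates 1, 2 and 3 (6.75%, 2.86% and 1.74%), and 1 and 0 without Collagen I replicates 1 and 3 (0.366% and 0.34%). Mitotic genes moved with the matrix, with 27 of 40 lower over all wells and 29 of 40 in basal wells. In non-cycling wells alone the lower calls among the 76 genes were 16 over all keratin classes, 7 in basal and 13 in non-basal wells, where 10.2%, 5.63% and 9.42% of all genes were lower. With wells thinned to 2000 counts they were 17 over all wells, 3 in basal and 7 in non-basal wells (11.5%, 8.54% and 9.81%).

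**Figure D3:**
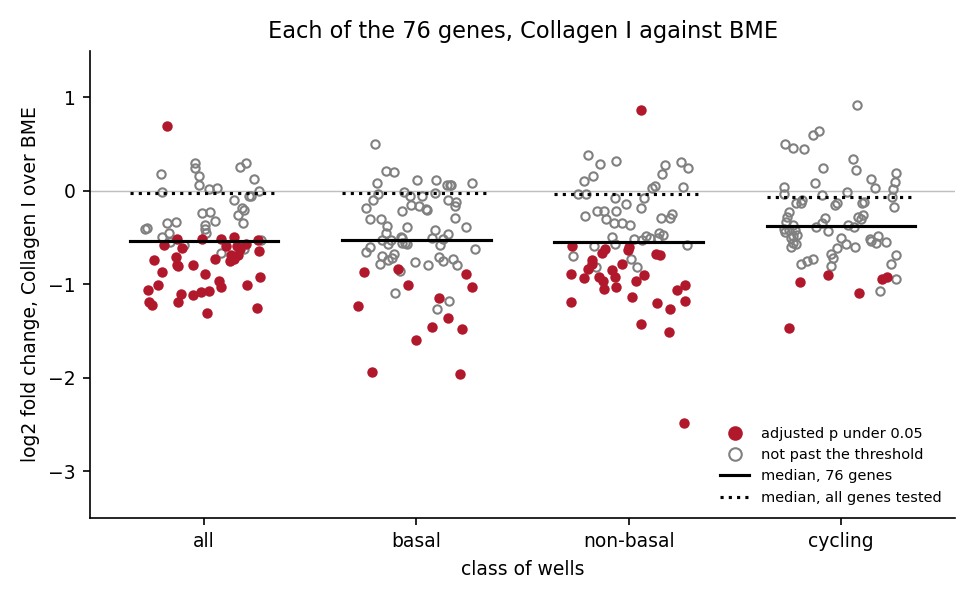
Log2 fold change of Collagen I over BME (vertical axis) for each of the 76 genes in 4 classes of wells, red where the adjusted p was under 0.05 and open where not, with the median of the 76 genes (solid line) and of all genes tested (dotted line). The solid lines lie at -0.53, -0.52, -0.55 and -0.38, below the dotted lines.

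The 10 members with the largest changes in basal wells were 8 large subunit and 2 small subunit genes. Mrpl37, a large subunit protein without a bacterial counterpart, had 65.8, 52.4 and 52.6 CPM in BME and 19.8 and 7.99 in Collagen I (log2 fold change -1.96, SE 0.39, adjusted p = 0.000892). Mrpl49, also particular to mitochondria, had 33.4, 46.0 and 42.0 CPM in BME and 12.4 and 7.99 in Collagen I (-1.94, SE 0.43, adjusted p = 0.00279). Both were well below BME in each Collagen I plate, but on few molecules. Mrpl37 rested on 11 Collagen I counts, a ratio to BME of 0.251 (exact 95% interval 0.124 to 0.454), and Mrpl49 on 8, a ratio of 0.250 (0.107 to 0.498), where the intervals cover counting error only. Without Collagen I replicate 3 their adjusted p was 0.0537 and 0.0673, over the alternatives from 6.42e-06 and 0.000156 to these values.

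Mrpl12 was the steadiest of the 10. It had 119, 152 and 161 CPM in the basal wells of BME and 49.6 and 50.6 in those of Collagen I (log2 fold change -1.48, SE 0.25, adjusted p = 0.000177) and passed in all 19 alternatives (adjusted p from 1.34e-07 to 0.0138). Besides its place in the stalk, its product is known to bind the mitochondrial RNA polymerase. Mrpl10, which anchors the stalk and was named after its values were seen, was called at 55.2, 69.5 and 64.3 CPM in BME against 44.6 and 21.3 (-0.88, SE 0.31, adjusted p = 0.0469).

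Of the other large subunit genes with a bacterial counterpart, Mrpl32 had 42.1, 43.9 and 45.9 CPM in BME basal wells and 4.96 and 26.6 in Collagen I (log2 fold change -1.46, SE 0.43, adjusted p = 0.0193). Its Collagen I plates stood far apart on 2 and 10 counts, a ratio to BME of 0.349 (exact 95% interval 0.179 to 0.619), and without replicate 1 the change was -0.68 with adjusted p = 0.346. Mrpl47 had 41.1, 34.6 and 36.9 CPM in BME and 14.9 and 13.3 in Collagen I (-1.36, adjusted p = 0.018). Mrpl27, which lies near the site of peptide bond formation, had 38.7, 49.2 and 51.0 CPM against 19.8 and 18.6 (-1.23, adjusted p = 0.0177). Mrpl22, which lines the exit tunnel for the new chain, had 43.1, 43.1 and 63.2 CPM against 19.8 and 24.0 (-1.15, adjusted p = 0.0302). Mrpl36 had 87.1, 83.1 and 101 CPM against 37.2 and 50.6 (-1.01, adjusted p = 0.0106). Mrpl47, Mrpl27 and Mrpl22 were called in 12, 11 and 10 of 18 alternatives, and Mrpl36 in 17 of 19. The calls of Mrpl47, Mrpl27 and Mrpl22 were lost without either Collagen I plate (adjusted p from 0.109 to 0.227), those of Mrpl27 and Mrpl22 also without BME replicate 3 (0.0566 and 0.116), and that of Mrpl36 without Collagen I replicate 1 (0.169). Their adjusted p ranged from 0.00659, 0.00543, 0.00666 and 0.0017 upward over the alternatives, with the upper ends at 0.157, 0.124, 0.227 and 0.169.

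The small subunit genes among the 10 were Mrps26 and Mrps7. Mrps26 is particular to mitochondria and had 29.5, 56.0 and 45.5 CPM in BME basal wells and 12.4 and 16.0 in Collagen I (log2 fold change -1.59, SE 0.44, adjusted p = 0.0128). Mrps7, whose bacterial counterpart helps to start assembly of the small subunit head, had 52.3, 76.7 and 73.0 CPM against 29.7 and 34.6 (-1.03, SE 0.31, adjusted p = 0.0216). Mrps26 was called in 15 of 18 alternatives and Mrps7 in 13 of 19. Both were called over all 5 plates and lost the call without either Collagen I plate (adjusted p 0.0927 to 0.189), and Mrps7 also without BME replicate 3 (0.0623). Over the alternatives their adjusted p ran from 0.000722 to 0.162 and from 0.00327 to 0.189. Mrpl4, which lines the exit tunnel and is listed by the study, had 92.0, 85.6 and 83.6 CPM in BME basal wells and 62.0 and 31.9 in Collagen I (-0.84, SE 0.27, adjusted p = 0.0317). It was called in 13 of 19 alternatives. Its call was lost without Collagen I replicate 3 (adjusted p = 0.373) and without BME replicate 3 (0.0592), within a range of 0.0096 to 0.638. The remaining call in basal wells was Mrpl18, named after its values were seen, which had 129, 98.8 and 113 CPM against 66.9 and 53.2 (-0.87, SE 0.25, adjusted p = 0.0152). In cycling wells the 6 called genes, named after their values were seen, were Mrpl18, Mrpl32, Mrpl37, Mrpl38, Mrpl43 and Mrpl47, all of the large subunit, with log2 fold changes from -1.47 to -0.90.

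The Mrps18 paralogs went different ways. Mrps18a, the paralog of the large subunit, was the only member called higher in Collagen I, at 22.2, 24.1 and 25.6 CPM over all wells of BME and 32.9 and 45.8 in Collagen I (log2 fold change 0.70, SE 0.21, adjusted p = 0.0222). Mrps18b was lower at 53.3, 67.5 and 72.0 CPM against 40.6 and 36.05 (-0.73, SE 0.20, adjusted p = 0.0113). Mrps18c had 45.2, 53.2 and 46.8 CPM against 55.2 and 64.3 and missed the threshold (0.30, SE 0.17, adjusted p = 0.195). The plates of the matrices did not overlap in any of the paralogs. In non-basal wells Mrps18a had 24.6, 24.6 and 28.7 CPM in BME and 41.3 and 54.6 in Collagen I (0.87, SE 0.24, adjusted p = 0.013). Its call was lost without Collagen I replicate 3 (adjusted p = 0.249 over all wells and 0.154 in non-basal wells), and over the alternatives it ranged from 0.0136 to 0.249 and from 0.0103 to 0.154. The call of Mrps18a was also lost in non-cycling wells alone and with wells thinned to 2000 counts, over all and in non-basal wells. It held in 16 of 19 alternatives over all wells and in 15 of 18 in non-basal wells. The gene overlaps Rsph9, and its reads could belong to either.

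Mrps22, a small subunit protein particular to mitochondria, was the member whose matrix effect differed between basal and non-basal wells. In non-basal wells it had 19.6, 29.2 and 26.0 CPM in BME and 3.54 and 5.64 in Collagen I (log2 fold change -2.49, SE 0.47, adjusted p = 0.000921). In basal wells it had 15.5, 27.5 and 17.3 CPM in BME and 19.8 and 21.3 in Collagen I, with overlap (0.06, SE 0.43, adjusted p = 0.94). The log2 difference of the effects was 2.48 (SE 0.66, adjusted p = 0.0224), with 4.29% of all genes called in this test, 1.45% higher and 2.84% lower. The value in non-basal wells of Collagen I rests on 6 counts, 3 in each plate, a ratio to BME of 0.176 (exact 95% interval 0.0642 to 0.387), and that in basal wells on 16 counts, a ratio of 0.996 (0.555 to 1.67). Without either Collagen I plate the difference missed the threshold (adjusted p = 0.307 and 0.140), in a range of 0.00968 to 0.307 over 11 alternatives. None of the 76 genes was called when the matrix effect in cycling wells was set against that in non-cycling wells, where edgeR called 46 of 10848 genes (0.424%), 2 members passed an unadjusted p under 0.05, and DESeq2 called none. With BME replicate 2 left out, 1 member was called higher, as were 0.423% of all genes.

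Other lists were read in the same fits, in which 16.3% of all genes were lower over all wells and 8.31% in basal wells. Of 62 genes for mitochondrial translation factors, tRNA synthetases and ribosome assembly, 22 were lower over all wells and none higher, with a median log2 fold change of -0.56. In basal wells 10 of 60 were lower and none higher, and the others were not called. Fastkd2, an RNA-binding protein of ribosome assembly, changed by -1.99 (SE 0.54, adjusted p = 0.0117), the isoleucyl-tRNA synthetase Iars2 by -1.36 (SE 0.38, adjusted p = 0.0154) and the tyrosyl-tRNA synthetase Yars2 by -1.24 (SE 0.39, adjusted p = 0.028). Noa1, a GTPase of ribosome assembly, had 194 counts in BME basal wells and 1 in Collagen I, a ratio of 0.0491 (exact 95% interval 0.00124 to 0.277). Lars2, the mitochondrial leucyl-tRNA synthetase, is not on this list and was higher in Collagen I, at 199.9, 385 and 315 CPM in BME basal wells against 1752 and 934 (2.20, SE 0.24, adjusted p = 5.19e-07). An alternative left Lars2 out together with abundant ribosomal and mitochondrial genes, and whether its reads came from its own transcript was not tested. The subunit gene Ptcd3 was lower in basal wells (-1.02, SE 0.33, adjusted p = 0.0327), and Dap3 (-0.32, adjusted p = 0.428) and Mrp63 (-0.32, adjusted p = 0.489) were not called. Dap3 had the other sign over all wells (0.24, adjusted p = 0.288) and in non-basal wells (0.46, adjusted p = 0.0714). So did Mrp63 in cycling wells (0.46, adjusted p = 0.359), all without a call.

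Of 75 nuclear genes of oxidative phosphorylation, 29 were lower and 2 higher over all wells (median -0.36), and of 79 tested cytosolic ribosomal protein genes 12 were lower and 1 higher (median -0.24), a share no larger than that of all genes. In basal wells the oxidative phosphorylation genes Cox7c (-1.49, adjusted p = 0.00234), Ndufb7 (-1.21, adjusted p = 0.0132) and Sdhb (-1.11, adjusted p = 0.0307) were lower and Ndufv3 was higher (1.30, adjusted p = 3.15e-05). The cytosolic genes Rps15a (-2.50), Rpl4 (-1.06) and Rpl12 (-0.87) were lower there with adjusted p from 0.00161 to 0.00388. The 13 protein-coding genes of the mitochondrial genome differed most among these lists, with 12 lower over all wells (median -1.24). Among them mtNd2 (-1.82), mtCytb (-1.70), mtNd4l (-1.68) and mtNd4 (-1.49) were lower in basal wells, with adjusted p from 3.45e-05 to 0.000267. Of the ribosomal RNA genes of the mitochondrial ribosome, which also entered the filter on wells, mt-Rnr1 was higher in basal wells of Collagen I (0.80, SE 0.25, adjusted p = 0.0298) and mt-Rnr2 was not called (-0.11, SE 0.29, adjusted p = 0.836).

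Set against the other lists within each plate, the summed level of the 76 genes relative to cytosolic ribosomal protein genes was 0.26 lower in Collagen I on the log2 scale over all wells, without overlap (exact p = 0.1). In non-basal wells this log2 difference was -0.39 (exact p = 0.1), and in basal wells -0.02 with overlap (exact p = 0.8). Relative to the mitochondrially encoded genes they were 0.75 higher in Collagen I over all wells, also without overlap (exact p = 0.1). Relative to the translation factors the 76 genes were 0.17 higher in Collagen I over all wells (exact p = 0.1), and relative to oxidative phosphorylation genes the log2 difference was -0.11 (exact p = 0.2) over all wells and 0.06 with overlap in basal wells (exact p = 0.6).

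The second comparison set basal against non-basal wells of the same plates. The ratio of the summed levels was 0.883, 0.824 and 0.879 in BME and 0.931 and 0.819 in Collagen I, so basal wells were lower in 5 of 5 plates. With the plate as a block, 23 members were lower in basal wells and none higher, where 13.6% and 14.1% of 10862 genes were, and the median log2 fold change was -0.23 against -0.01 over all genes. In every plate 29 members were lower (13.0% of all genes) and 1 was higher (15.0%). Mitotic genes moved the same way, with 10 of 40 lower in basal wells and none higher, and among non-cycling wells alone the ratio was 0.976, 0.913 and 0.922 in BME and 1.08 and 0.928 in Collagen I, with 2 members called lower (5.39% of all genes) and a median of -0.10. Lower calls numbered 9, 7 and 14 without BME replicates 1, 2 and 3 (8.44%, 7.77% and 10.1%) and 12 with DESeq2 (9.35%).

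Mrpl38, a large subunit protein without a bacterial counterpart, differed most between these classes. It had 95.4, 95.6 and 92.6 CPM in basal wells of BME against 169, 172 and 140 in non-basal wells, and 39.7 and 90.5 against 84.9 and 77.1 in Collagen I (log2 fold change -0.71, SE 0.12, adjusted p = 0.000576). Basal wells were lower in 4 of 5 plates. Mrpl12 had 119, 152 and 161 CPM against 151, 242 and 222 in BME, and 49.6 and 50.6 against 93.1 and 80.9 in Collagen I (-0.57, SE 0.10, adjusted p = 0.000914). Mrpl34 had 103, 73.5 and 80.4 CPM against 146, 102 and 124 in BME, and 57.0 and 58.6 against 81.3 and 80.9 in Collagen I (-0.55, SE 0.09, adjusted p = 0.000442). These genes were lower in basal wells of each plate. Mrps31, at 16.1 to 20.3 CPM in basal wells, and Mrpl46, at 7.99 to 30.3, were called with log2 fold changes of -0.52 each (adjusted p = 0.0395 and 0.0224). Both lost the call when any 1 of the BME plates was left out, with adjusted p up to 0.251 and 0.140. In non-cycling wells alone Mrpl12 had a log2 fold change of -0.21 (adjusted p = 0.431) and Mrpl34 of -0.24 (0.382). Their ranges over the alternatives were 3.65e-06 to 0.431 and 8.52e-06 to 0.825. Mrpl38 kept its call in non-cycling wells and was called in 11 of 12 alternatives, with adjusted p from 3.665e-09 to 0.181.

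Within BME 28 members were lower in basal wells and none higher (17.3% and 18.0% of all genes), and within Collagen I 3 were lower and 2 higher (3.32% and 4.35%). Without BME replicates 1 and 2 the count within BME was 18 and 16 (12.9% and 14.1% of all genes). The genes called within Collagen I, named after their values were seen, were Mrpl12 (-0.86), Mrpl45 (-0.85) and Mrps26 (-1.39), lower in basal wells, and Mrpl52 (0.71) and Mrps22 (2.14), higher. Without Collagen I replicate 1 or 3 the lower calls were 1 and 0 (0.836% and 1.70%), and without BME replicate 2 there was 1 (2.69%). The fit shares its spread over all 5 plates.

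The third comparison set cycling against non-cycling wells of the same plates. Cycling wells made up 49.2% ± 1.30 (SD, n = 3) of kept wells in BME and 19.9% ± 1.08 (SD, n = 2) in Collagen I. The summed level was higher in cycling wells by a factor of 1.32, 1.30 and 1.27 in BME and of 1.44 and 1.47 in Collagen I, so in 5 of 5. With the plate as a block, 54 of 76 members were higher and none lower, where 21.6% of 10848 genes were higher and 19.8% lower. The higher calls comprised 30 of 47 Mrpl and 24 of 29 Mrps genes. The median log2 fold change was 0.42 against -0.03 over all genes, and in every plate 52 members were higher (19.8% of all genes) and none lower (18.8%). No member is on the list of mitotic genes that defined the classes.

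Mrpl12 had the largest change in this comparison, with 167, 249 and 237 CPM in cycling wells of BME against 90.5, 127 and 148 in non-cycling wells, and 169 and 137 against 43.4 and 40.1 in Collagen I (log2 fold change 1.03, SE 0.12, adjusted p = 1.52e-06). Within BME the change was 0.88 and within Collagen I 1.83, a difference of 0.95 (SE 0.24) that missed the threshold (adjusted p = 0.0832). In cycling wells the plates of the matrices overlapped for Mrpl12, and in non-cycling wells they did not. Mrpl16, whose bacterial counterpart lies near the site of peptide bond formation, had 35.7, 43.9 and 49.1 CPM against 16.3, 26.6 and 27.7 in BME, and 29.7 and 31.6 against 7.07 and 12.3 in Collagen I (0.97, SE 0.15, adjusted p = 3.31e-05). Mrps25, particular to mitochondria, had 47.0, 63.7 and 55.3 CPM against 20.4, 28.4 and 38.9 in BME, and 44.5 and 21.05 against 16.2 and 23.1 in Collagen I (0.93, SE 0.15, adjusted p = 7.48e-05). Only Collagen I replicate 3 did not show the direction of Mrps25. Mrpl18 had 164, 164 and 176 CPM against 91.4, 88.2 and 98.9 in BME, and 92.0 and 91.2 against 59.6 and 60.1 in Collagen I (0.84, SE 0.09, adjusted p = 5.68e-07). Mrpl42 had 168, 136 and 158 CPM against 82.3, 98.2 and 97.9 in BME, and 107 and 105 against 50.5 and 47.8 in Collagen I (0.80, SE 0.10, adjusted p = 3.68e-06). Both were higher in cycling wells of each plate. Mrps21 was not called (0.03, SE 0.08, adjusted p = 0.885).

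The lists around the mitochondrial ribosome behaved unequally here. Of 61 tested translation and assembly genes 22 were higher and none lower in cycling wells (median 0.40), and of 75 oxidative phosphorylation genes 33 were higher and 4 lower (median 0.18). Of 77 tested cytosolic ribosomal protein genes 9 were higher and 5 lower (median -0.03), and their summed level in cycling wells was 0.920 to 1.03 times that in non-cycling wells. The 13 mitochondrially encoded genes had 3 higher and 1 lower calls (median 0.12).

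**Figure D4:**
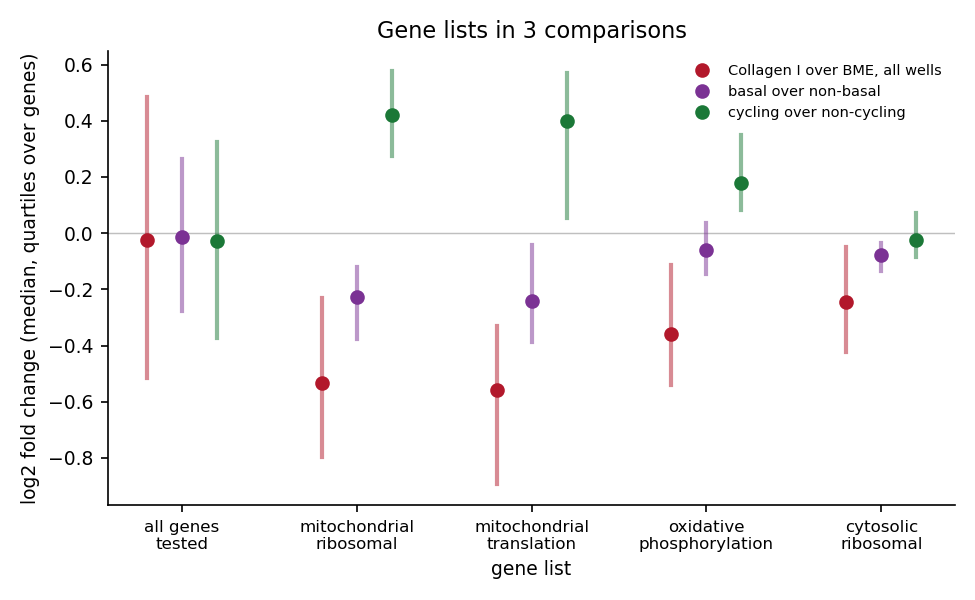
Median (points) and quartiles (bars) over genes of the log2 fold change (vertical axis) for 5 gene lists (horizontal axis) in 3 comparisons shown by color. The mitochondrial ribosomal and translation genes have medians of -0.53 and -0.56 in Collagen I and of 0.42 and 0.40 in cycling wells, and cytosolic ribosomal genes -0.24 and -0.03.

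Depth was read beside these values. Cycling wells had medians of 26938, 25441 and 26506 counts in BME and 6519 and 3964 in Collagen I, and non-cycling wells 18415, 24606, 26289, 5088 and 2877. Among wells thinned to 2000 counts, the mean number of counts of the 76 genes was 9.97, 11.3 and 11.4 in cycling wells of BME against 7.71, 9.08 and 8.67 in non-cycling wells. In Collagen I it was 10.0 and 8.80 against 6.29 and 6.40. The means were higher in cycling wells in 5 of 5 plates. In the test by gene on such thinned wells 6 members were higher, where 11.2% of all genes were. Within BME 56 members were higher in cycling wells (22.4% of all genes) and within Collagen I 9 (7.33%), where 5.88% of all genes were lower and no member was, with 2 and 1 within Collagen I when its replicates 1 and 3 were left out (1.85% and 2.52%).

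The level was also followed over 5 ranges of mitotic counts. In wells under 5 mitotic counts per 10000 the 76 genes summed to 34.6, 44.3 and 42.5 per 10000 in BME and 33.3 and 31.2 in Collagen I. At 20 to 40 they summed to 49.9, 61.4 and 59.4 in BME and to 47.3 and 51.3 in Collagen I, and at 40 or more to 49.0, 57.8 and 57.8 and to 47.2 and 45.3. Each plate thus had its highest value at 20 to 40 and a slightly lower one above. The value of Collagen I replicate 3 at 20 to 40 rests on 15 wells and that of replicate 1 on 19.

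**Figure D5:**
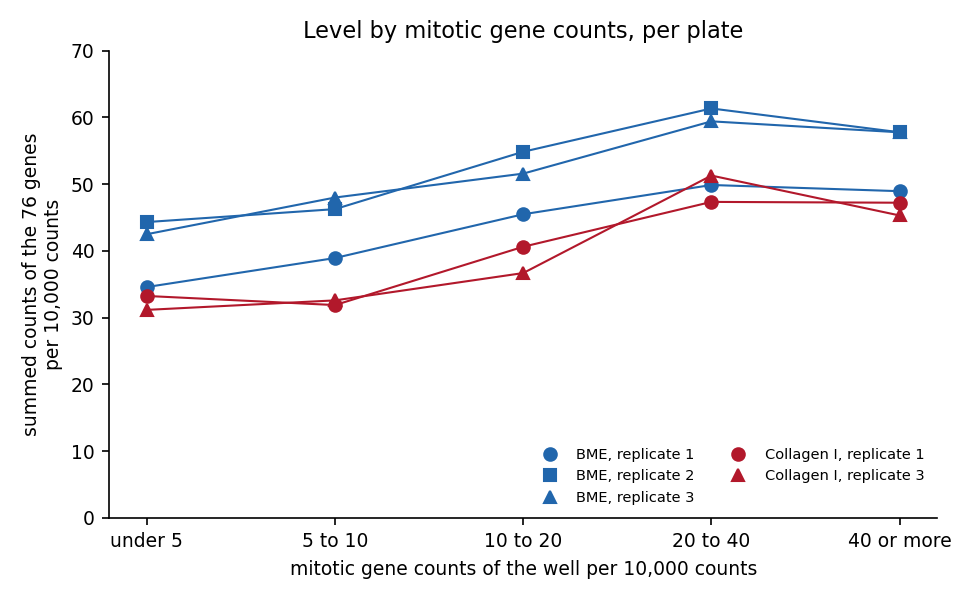
Summed counts of the 76 genes per 10000 counts (vertical axis, from 0) in wells grouped by mitotic gene counts per 10000 (horizontal axis), 1 line per plate with BME in blue and Collagen I in red. Each line is higher at 20 to 40 than under 5.

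Genes of S phase, a list apart from the mitotic genes, allowed a further split. Wells high in S phase genes (20 or more per 10000) and low in mitotic genes (under 10) had 1.33, 1.22 and 1.29 times the level of wells low in both in the BME plates, and 1.39 and 1.59 times in Collagen I. Wells low in S phase genes and high in mitotic genes had 1.11, 1.17 and 1.19 times that level in BME and 1.20 and 1.22 in Collagen I. All 5 plates lay above 1 in either split, and the first rests on 4 wells in Collagen I replicate 1 and the second on 6 in BME replicate 3. Basal wells showed the cycling difference as well, with ratios of 1.22, 1.24 and 1.23 in BME and 1.12 and 1.14 in Collagen I, and non-basal wells had 1.32, 1.29, 1.31, 1.58 and 1.44.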

How the data were processed

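SORT-seq libraries of single cells were made by the authors with CEL-Seq2 chemistry, in which molecular tags mark transcripts at the 3′ end. The authors mapped reads with BWA to the mouse transcriptome (mm10 per the submitters' processing notes, versions not given in the sources used here) and deposited 1 table of estimated counts per plate, corrected for tags used more than once. A tag of 6 bases gave back whole tags for 100% of values within 0.0051, while the labels name a shorter tag. The tables hold 18384 genes and 88 spike-ins in 384 wells. Strand-specific counting is not stated there. Collagen I replicate 2 is not analysed here.

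Wells with more than 500 counts without spike-ins, fewer than 8000 genes and under 10% of counts on genes with the prefix mt- were kept. No doublet caller was run. Kept wells were summed per plate and class (302 basal, 537 non-basal, 465 cycling and 328 non-cycling wells in BME, and 226, 277, 111 and 374 in Collagen I), and sums were rounded to whole numbers. Kept wells summed to 8104849 to 9084335 counts per BME plate and to 1026495 and 1430023 counts per Collagen I plate, so a value of 50 CPM rests on far fewer molecules in Collagen I. Intervals cover counting error only.

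Plates were compared with the quasi-likelihood test of edgeR 4.0.16 (R 4.3.3, TMM factors, filterByExpr), with p-values adjusted by Benjamini-Hochberg over all genes tested and 0.05 as the threshold. Collagen I and BME were compared within each class without a block, and classes were compared with the plate as a block. Single values per plate were compared with two-sided exact permutation tests. DESeq2 1.42.0, limma 3.58.1, other scalings and filters, wells thinned to 2000 counts and leaving out each plate were alternatives. The scripts were tested on simulated data. Chi-square per degree of freedom was 2.47 to 50.3 between plates, so no plate was a copy of another.

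The members and lists were chosen with earlier results of these data known. Named were the 10 members with the largest change in basal wells among those called with plates apart, the 5 most abundant, up to 5 called in each class comparison by size, each called in a difference of effects, Mrpl4 and Mrpl12 (listed by the study), the Mrps18 paralogs, and up to 4 called genes of each other list by size in basal wells, of which 1 is not reported here. Genes named beyond this rule were chosen after their values were seen, as were Mrp63, Dap3, Ptcd3, Lars2 and the ribosomal RNA genes.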

Additional observations from a re-analysis of the deposited data

Results flagged for a closer look

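Mrps22 was the member whose effect of the matrix differed between basal and non-basal wells by a test of the difference itself. With 1 of 76 members called, the share was below that of all genes (4.29%). The log2 difference of the effects was 2.48 (SE 0.66, edgeR quasi-likelihood test, adjusted p = 0.0224), with 5 plates in the fit. The 16 counts in basal wells and 6 in non-basal wells of Collagen I on which it rests were spread over both plates. In non-basal wells both Collagen I plates were below all BME plates, and in basal wells the plates overlapped. Without Collagen I replicate 1 the difference was 2.16 (adjusted p = 0.307), without Collagen I replicate 3 it was 2.76 (0.140), and in non-cycling wells alone it was 2.72 (0.228). Its direction was the same in all 11 alternatives that gave a value.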

How the results depend on the processing

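The median log2 fold change of the 76 genes kept its sign in each comparison of matrices or of classes under every alternative run, and changed sign in 1 alternative for each of the tests of a difference of effects. It ran from -0.62 to -0.36 over all wells and from -0.61 to -0.39 in basal, -0.64 to -0.38 in non-basal and -0.41 to -0.18 in cycling wells for Collagen I over BME, from -0.28 to -0.10 for basal over non-basal, and from 0.37 to 0.45 for cycling over non-cycling wells. Counts of calls moved far more.

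With every well thinned to 2000 counts, lower calls in Collagen I were 17 over all wells, 3 in basal, 7 in non-basal and 3 in cycling wells, where 11.5%, 8.54%, 9.81% and 2.81% of all genes were. The same thinning left 1, 3 and 0 lower calls for basal wells over both matrices, within BME and within Collagen I. Of all genes, 5.12%, 6.44% and 3.31% were lower in these fits. The difference of effects had no call, Mrps22 included. Higher calls for cycling wells were 6, 3 and 2 over both matrices, within BME and within Collagen I, where 11.2%, 9.93% and 4.35% of all genes were. Thinning removes most counts of the BME wells by construction. With DESeq2, lower calls for the matrix were 7 in basal and 3 in cycling wells, where 4.91% and 2.32% of all genes were lower. For basal wells DESeq2 gave 12, 11 and 0 lower calls over both matrices, within BME and within Collagen I (9.35%, 10.3% and 1.85%). Its higher calls for cycling wells within BME were 21 (13.1%). With limma-voom, lower calls in Collagen I were 6 in basal, 20 in non-basal and 1 in cycling wells (4.69%, 8.71% and 1.49%). In non-cycling wells alone they were 16 over all keratin classes (added after the data were seen), 7 in basal and 13 in non-basal wells. Of all genes, 10.2%, 5.63% and 9.42% were lower there. Basal against non-basal wells then gave 2, 2 and 0 lower calls over both matrices, within BME and within Collagen I (5.39%, 7.11% and 1.83%). The difference of effects gave 0 (1.69% of all genes lower and 0.954% higher). With all genes of chromosome M held under 10% per well, also added later, 11 were lower over all wells (8.11% of all genes). That limit kept only 42, 71 and 49 BME wells, against 200 and 191 Collagen I wells. In cycling wells lower calls were 2 without the top 5% of wells (3.04% of all genes). With S phase genes defining the class they were 0 (1.24%). Basal wells within Collagen I had 1 lower call with library size alone (2.5% of all genes) and 1 with wells over 2000 counts (3.48%). The difference of the matrix effect between cycling and non-cycling wells gave 1 call with library size alone, 1 without the filter on low counts and 1 with wells over 2000 counts. These calls were higher, where 0.277%, 0.333% and 0.184% of all genes were. The causes were not tested.

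With 1 plate left out at a time, lower calls in Collagen I ranged from 15 to 52 over all wells, 4 to 16 in basal, 12 to 40 in non-basal and 0 to 12 in cycling wells. Within Collagen I, lower calls for basal wells were 1 to 3 with 1 BME plate left out (2.69% to 3.61% of all genes). They were no more numerous without a Collagen I plate. With any 1 plate left out, they ranged from 7 to 27 over both matrices and 16 to 30 within BME (7.77% to 14.2% and 12.9% to 17.5%). Calls for the differences of effects ranged from 0 to 1 in each. Higher calls for cycling wells ranged from 41 to 53 over both matrices, 38 to 56 within BME and 1 to 12 within Collagen I. Leaving out a Collagen I plate leaves 1 sample there, which is assumed to vary like the BME plates. Per spike-in count, the log2 ratio of the summed level of Collagen I over BME was -1.12 over all wells, -0.74 in basal and -1.30 in non-basal wells. The Collagen I plates stood apart on this scale, with 12.3 and 5.49 counts of the 76 genes per 100 spike-in counts over all wells against 18.0 to 21.6 in BME, and with 13.7 and 5.65 against 14.2 to 18.3 in basal wells. In cycling wells the ratio was -0.30, with 1 Collagen I plate above and 1 (5.17) below the BME plates (23.7 to 26.3). Per 10000 counts, the log2 ratio was -0.20 in wells of 2000 to 5000 counts, -0.087 in wells of 5000 to 10000 and -0.25 above, where depths still differed.

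With the replicate number as a block, lower calls in Collagen I were 35 over all wells (16.2% of all genes). They were 14 in basal, 27 in non-basal and 6 in cycling wells (8.52%, 13.3% and 3.79%). The numbers did not pair the plates, since same-numbered plates deviated together with r = -0.013 and 0.013, and the blocked fit is given only as an alternative.

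Depth limits the Collagen I side, where a member of median level rests on few counts per plate, fewest in basal wells, and where keratin and mitotic classes rest on few counts per well. The 2 Collagen I plates and the 3 BME plates were sequenced apart, so no fit can hold the run constant.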

Other observations

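Across wells thinned to 2000 counts, the number of counts of the 76 genes in a well had a variance of 1.52 to 1.89 times its mean per plate. Within plates it correlated with counts of nuclear oxidative phosphorylation genes with Spearman's rho of 0.358 to 0.407 and with mitotic counts with rho of 0.131 to 0.299, a description over 201 to 286 wells that share a library.

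Wells between the keratin limits of basal and non-basal wells had a summed level of the 76 genes of 48.2 per 10000 in BME and 39.6 in Collagen I, and the plates of the matrices overlapped there.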
